A study of Mus musculus with 2 samples.

Results

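The 32 genes described here encode proteins of the endoplasmic reticulum (ER) that fold, process and export secreted proteins, together with regulators of the stress response that sets their supply. They were taken by symbol from the gene table, where all 32 of 32 symbols were found among 27998 genes, and the rule that lists them uses no expression value. They were read per cell class in 2 single-cell RNA libraries, above all in plasma cell-like, plasmacytoid dendritic cell-like, granulocyte progenitor-like and T cell-like cells. By role the genes form 7 groups: transcription factors and stress regulators (Xbp1, Atf4, Ddit3, Herpud1), chaperones and co-chaperones (Hspa5, Hsp90b1, Hyou1, Dnajb9, Dnajb11, Dnajc3, Sdf2l1, Manf, Creld2), lectin chaperones (Calr, Canx), disulfide isomerases (P4hb, Pdia3, Pdia4, Pdia6), the translocon and its partners (Sec61a1, Sec61b, Sec61g, Ssr1, Ssr2, Ssr3, Ssr4), signal peptidase (Spcs1, Spcs2, Spcs3, Sec11c) and antibody assembly (Mzb1, Jchain).

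The cells came from hindlimb muscle of Fsp1-Cre: R26R-EYFP mice and were sorted as YFP+CD11b-. In these mice the promoter of Fsp1, the gene S100a4, drives Cre, which turns on YFP for good in that cell and in all cells that descend from it, so the label marks a history of promoter activity and not 1 cell type. The day 0 library came from mice that had no surgery and the day 28 library from mice 28 days after hindlimb ischemia surgery, an operation that cuts blood flow to the limb. Each group had 1 library, so no difference between the days has a replicate check, and the number of mice behind each library is not given in the sources used here.

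Proteins bound for secretion enter the ER through the Sec61 channel, lose their signal peptide to signal peptidase, and fold with the help of chaperones, glycan-binding lectins and enzymes that form disulfide bonds. When unfolded protein accumulates, sensors in the ER membrane start the unfolded protein response, in which XBP1, ATF6 and ATF4 raise the transcription of genes for folding and degradation. Plasma cells, the antibody-secreting end stage of the B lineage, are known for a very large ER built under XBP1, and plasmacytoid dendritic cells, which secrete type I interferon, also have an extensive ER.

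Promoters of several chaperone genes carry the ER stress response element, CCAAT followed by any 9 bases and CCACG, which is known to bind ATF6 together with a CCAAT-binding factor. RefSeq promoters of 300 bases (250 before and 50 after the start, build GRCm38.p6) were matched for 25 of the 32 genes. The element, searched on both strands, was found in 7 of them, or 28.0%, beside 39 of 32851 promoters of the same length in the whole table, or 0.119%. The windows that hold it are shown because the 7 genes span the chaperone, lectin and disulfide isomerase groups and yet differed widely in expression across the cells below. Each reads 5′ to 3′ on the strand of its gene, and capitals mark CCAAT and CCACG, or their reverse complements ATTGG and CGTGG where the element lies on the opposite strand.
Hspa5 (chr2:34772019-34772048, plus strand): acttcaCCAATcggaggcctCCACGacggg
Hsp90b1 (chr10:86705513-86705572, minus strand): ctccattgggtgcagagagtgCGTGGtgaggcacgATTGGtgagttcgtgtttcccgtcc
Dnajc3 (chr14:118937806-118937865, plus strand): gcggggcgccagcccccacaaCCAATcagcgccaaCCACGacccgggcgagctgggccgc
Creld2 (chr15:88819499-88819558, plus strand): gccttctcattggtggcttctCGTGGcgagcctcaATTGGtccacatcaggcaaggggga
Calr (chr8:84847055-84847114, minus strand): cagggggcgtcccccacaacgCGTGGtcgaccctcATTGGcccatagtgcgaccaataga
Canx (chr11:50325780-50325839, minus strand): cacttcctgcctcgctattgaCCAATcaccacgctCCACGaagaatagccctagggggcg
Pdia6 (chr12:17266470-17266529, plus strand): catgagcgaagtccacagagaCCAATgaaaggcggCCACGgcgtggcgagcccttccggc

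The end of the element nearest the start lay between 47 bases (Hspa5) and 144 bases (Calr) upstream, and Hsp90b1 held 2 elements, of which 1 is shown. The window of Hspa5 lies in an exon of that gene as GENCODE M21 annotates it. The short tail CCACG, which is part of the element, was found in 18 of the 25 promoters (72.0%) and in 32.8% of all promoters. The core TGACGTGG was found in 0 of 25 (0.676% of all promoters), and TGATGNAAN, a core of ATF4 sites, in 1 of 25, Herpud1 (3.95% of all promoters). These matches describe the letters in the windows and do not show that a factor binds there.

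The day 0 library held 2668 barcodes and 19574562 UMIs (counted RNA molecules) and the day 28 library 2653 barcodes and 38785525 UMIs. Kept cells numbered 2609 and 2580, with medians of 4783 and 12222 UMIs, and 13 barcode sequences occurred in both libraries. Muscle markers were nearly absent for cells labelled hindlimb muscle: the list summed to 18.1 CPM (UMIs of the gene per 1000000 UMIs) at day 0 and 6.03 CPM at day 28, with Myod1, Myf5 and Myog at 0 in both. Fibroblast markers summed to 91.1 and 38.2 CPM, against 5110 and 8620 CPM for the granulocyte progenitor list. S100a4, whose promoter drives the label, stood at 227 and 229 CPM, and Itgam, which encodes CD11b, at 6.59 and 9.46 CPM. Levels below are CPM of all UMIs summed over the cells of a class. Intervals in brackets are exact at 95% and cover counting error only.

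Clusters were named from marker lists after leaving the 32 genes and wider ER lists out of the clustering genes, and 13 units (10 named classes and 3 unnamed clusters) had at least 20 cells in each library. Plasma cell-like cells numbered 26 at day 0 and 82 at day 28, plasmacytoid dendritic cell-like cells 120 and 119, granulocyte progenitor-like cells 145 and 715, and T cell-like cells 838 and 36. The plasma cell-like cluster had all 9 of its 9 markers detected, and 22 of 26 and 79 of 82 cells held a UMI of Sdc1 or Tnfrsf17, surface markers of plasma cells. Its leading genes were Slpi, Mt2, Ly6a, Prg2, Mt1, S100a8, Elane, Sdc1, Gm43291 and Eaf2, and Elane and S100a8 among them are genes of granulocyte precursors. Of the 82 day 28 barcodes, 10 carried granulocyte progenitor markers at 0.984% to 3.91% of their UMIs, and none of the 26 at day 0 reached 0.5%. Those 10 had a median of 31068.5 UMIs against 6681 in the other 72 and held 35.2% of the UMIs of the class at day 28, so plasma cell values are given with and without them where they matter.

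The ER genes were highest in plasma cell-like cells. Against the median of the other 12 units of the same library, 24 of the 32 genes stood at least 2-fold higher in both libraries and 0 of 32 at 0.5 or less, where all 7099 genes of at least 10 CPM gave 4.93% and 1.37%. The median log2 difference from the other units was 2.21 at day 0 and 2.07 at day 28, beside −0.21 and −0.08 over all genes. Plasma cell-like cells were the highest of the 13 units for 27 of the 32 genes in both libraries. No such count over all genes stands beside it. The 8 genes outside the 24 were Atf4, Ddit3, Hyou1, Canx, P4hb, Pdia3, Sec61g and Ssr1. With 1 library a group these counts have no test, and leaving out the 10 barcodes gave 25 in place of 24.

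**Figure D1:**
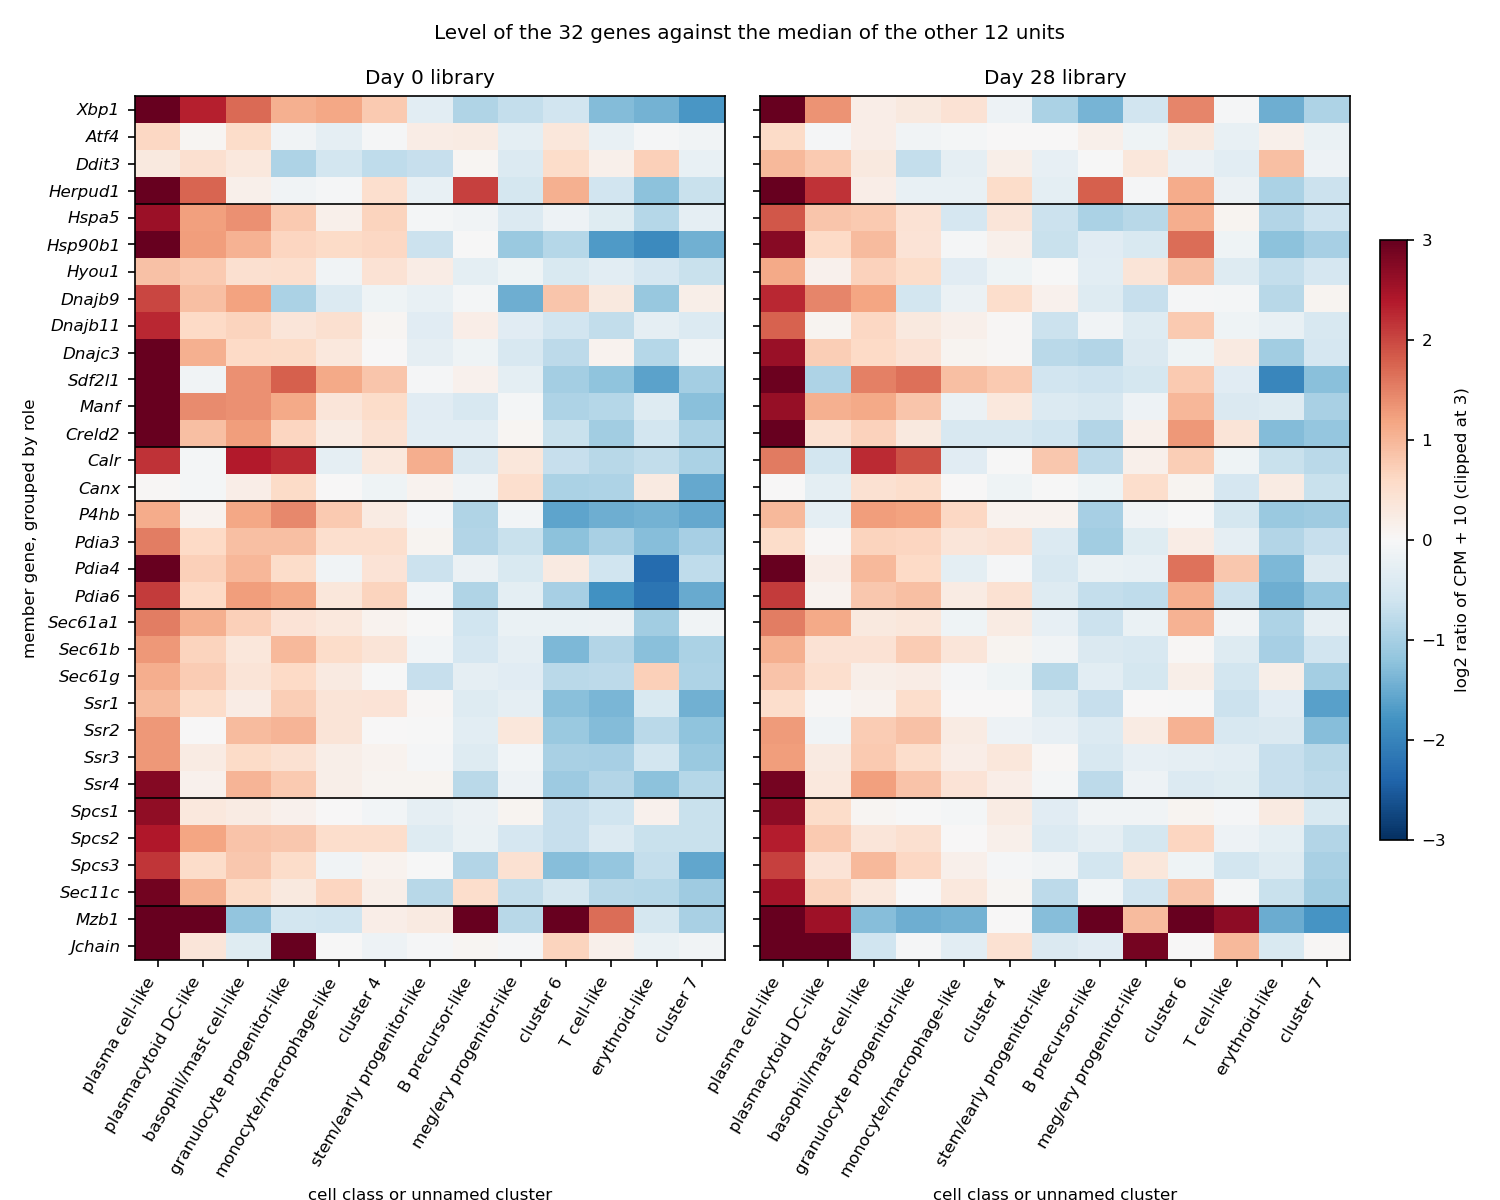
Heat map of the 32 ER genes (rows, by role) in the 13 cell units (columns), with day 0 and day 28 in separate panels. Colour is the log2 ratio of CPM + 10 to the median of the other 12 units of the same library, limited to 3 in either direction. The plasma cell-like column is the darkest for most rows in both panels, while erythroid-like cells and cluster 7 lie below the median for most.

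Of the transcription factors and stress regulators, 2 of 4 passed the 2-fold mark in plasma cell-like cells in both libraries. Xbp1 (ENSMUSG00000020484, chromosome 11, 5520659 to 5525893 on GRCm38), the transcription factor that drives the secretory programme of plasma cells, stood at 1688 CPM (1514 to 1877) in the day 0 library and 1503 CPM (1423 to 1586) in the day 28 library. The other 12 units lay between 12.8 and 270.7 CPM at day 0 and between 20.2 and 200.9 CPM at day 28, so no other unit overlapped, and the level was 30.6 and 19.8 times their median on the CPM + 10 scale used for every such ratio here. Herpud1, a membrane protein of ER-associated degradation, stood at 1020 and 962.9 CPM, or 12.5 and 19.1 times the other units. Atf4, the transcription factor of the integrated stress response, was nearly level with the other units, at 257.5 and 316.1 CPM and ratios of 1.54 and 1.48. Ddit3, which encodes the stress factor CHOP, rested on 8 UMIs in 7 cells at day 0 (39.6 CPM, 17.1 to 78.0) and 51 UMIs in 29 cells at day 28 (57.4 CPM), with ratios of 1.23 and 1.95. With all cells counted, high Xbp1 and Herpud1 stood beside levels of Atf4 and Ddit3 under 2-fold. These levels alone do not describe the integrated stress response, whose targets are counted below. Without the 10 barcodes that carry granulocyte progenitor markers, Ddit3 stood at 76.4 CPM and Atf4 at 359.3 CPM at day 28. The day 28 ratios of both genes above hold only with those barcodes counted, so Ddit3 is not placed under 2-fold without them.

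Among the chaperones and co-chaperones, 8 of 9 were at least 2-fold higher in plasma cell-like cells in both libraries, with group medians of 3.25 and 2.60 on the log2 scale. Hspa5 (ENSMUSG00000026864, chromosome 2, 34771970 to 34777547), which encodes the main ER chaperone BiP, stood at 1188 CPM (1043 to 1348) and 685 CPM (632 to 742), 5.93 and 3.61 times the other units. Hsp90b1 (ENSMUSG00000020048, chromosome 10, 86690209 to 86705509), the ER member of its chaperone family, stood at 2144 and 1985 CPM, 10.6 and 6.59 times the others. Both were higher in this class than in any other unit of either library. The J-domain co-chaperones of BiP all stood above the other units, with Dnajc3 at 802.1 and 598.4 CPM (9.86 and 6.04 times), Dnajb11 at 475.3 and 366.7 CPM (4.81 and 3.44 times) and Dnajb9 at 252.5 and 213.7 CPM (4.02 and 4.83 times). Sdf2l1, a partner of BiP and its co-chaperones, stood at 1069 and 956.1 CPM (10.8 and 7.71 times). Manf, a stress-induced protein that binds BiP and can be secreted, stood at 1881 and 1144 CPM (9.52 and 6.10 times). Creld2, an ER-resident protein induced by stress, stood at 782.3 and 593.9 CPM (17.3 and 10.4 times), the largest ratios of the group in both libraries. Hyou1, a nucleotide exchange factor of BiP, was the exception at 4 UMIs (19.8 CPM) and 31 UMIs (34.9 CPM), where ratios of 1.84 and 2.20 rest on few molecules.

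Lectin chaperones and disulfide isomerases were mixed. Calr, the soluble lectin chaperone of the ER, stood at 1347 and 1234 CPM in plasma cell-like cells, 4.46 and 2.92 times the others, and was at rank 3 of the 13 units in each library. Canx, its membrane-bound relative, was level with the other units at 178.2 and 203.6 CPM (1.03 and 1.01 times), and its promoter window above holds the same element as that of Hspa5. Pdia4 (ENSMUSG00000025823, chromosome 6, 47796141 to 47813430) and Pdia6, disulfide isomerases of the BiP complex, stood at 1228 and 624.3 CPM (19.3 and 12.6 times) and at 653.5 and 502.8 CPM (4.31 and 4.27 times). P4hb, the classical protein disulfide isomerase, stood at 277.3 and 377.9 CPM (2.15 and 1.96 times). Pdia3, which works with Calr and Canx on glycoproteins, stood at 554.5 and 343.1 CPM (2.91 and 1.47 times). Of the 4 isomerases, the pair of Pdia4 and Pdia6 passed the 2-fold mark in both libraries, while P4hb and Pdia3 passed it at day 0 alone.

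The translocon group had 5 of 7 genes above the mark, with group medians of 1.30 and 1.25. Of the channel subunits, Sec61a1, which forms the pore, stood at 207.9 and 237.3 CPM (2.92 and 2.91 times), Sec61b at 1619 and 1851 CPM (2.45 and 2.08 times) and Sec61g at 1604 and 1385 CPM (2.14 and 1.80 times). The translocon-associated proteins Ssr1 (361.4 and 276.7 CPM), Ssr2 (495.1 and 393.7 CPM) and Ssr3 (346.6 and 316.1 CPM) reached 1.92 and 1.45, 2.48 and 2.42, and 2.46 and 2.39 times the others. Ssr4, the fourth protein of that complex, stood apart at 2738 and 2875 CPM, 6.70 and 7.32 times. All 4 signal peptidase genes passed the mark in both libraries. Sec11c, a catalytic subunit, stood at 1822 and 1630 CPM (7.45 and 5.60 times), and the accessory subunits Spcs1 at 1258 and 992.1 CPM (6.37 and 6.43 times), Spcs2 at 1104 and 966.2 CPM (5.26 and 5.11 times) and Spcs3 at 391.1 and 344.2 CPM (4.43 and 4.13 times).

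The antibody assembly genes differed most between plasma cell-like cells and the rest. Mzb1 (ENSMUSG00000024353), an ER co-chaperone of the B lineage that helps antibodies assemble, stood at 6763 CPM (6409 to 7131) in the day 0 library and 2966 CPM (2854 to 3082) in the day 28 library, 221 and 93.1 times the median of the other units. Jchain (ENSMUSG00000067149, chromosome 5, 88519809 to 88527891), which joins antibody molecules of the IgM and IgA classes into polymers, stood at 94150 CPM (92820 to 95500) and 78390 CPM (77800 to 78970). The class made up 0.997% of day 0 cells and 3.18% of day 28 cells and held 89.0% and 87.2% of all Jchain UMIs of the library. The antibody heavy and light chain genes Ighm, Igkc and Iglc2 were not found under these symbols, so the cargo itself was not analysed here.

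**Figure D2:**
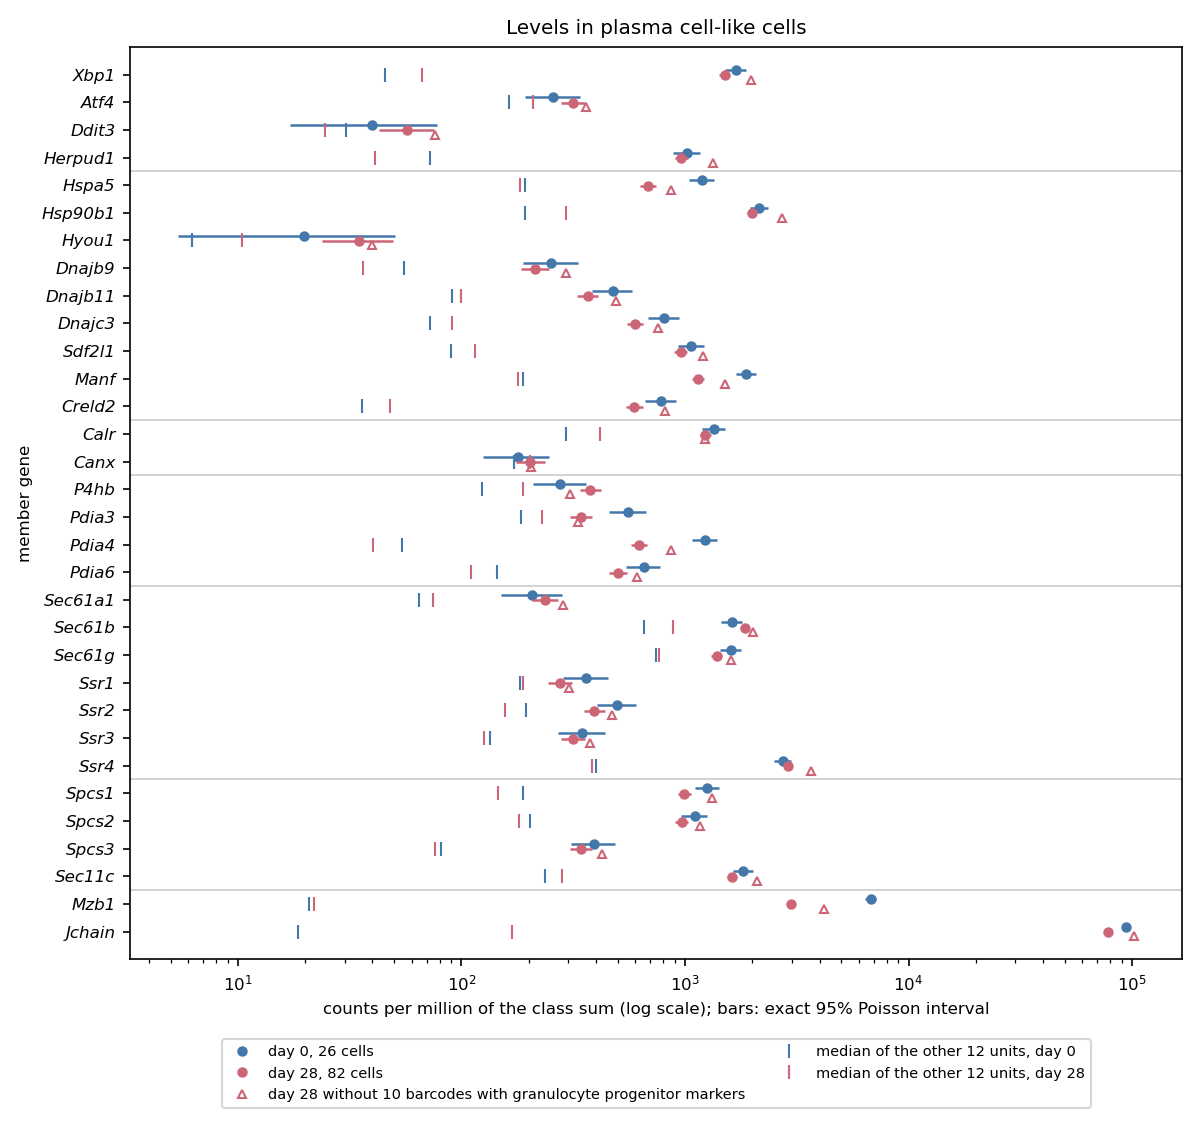
CPM (log axis) of the 32 ER genes in plasma cell-like cells, with day 0 (26 cells) and day 28 (82 cells) as points with exact 95% Poisson intervals. Triangles are day 28 without the 10 barcodes that carry granulocyte progenitor markers, and ticks are the median of the other 12 units. Xbp1, Creld2, Pdia4, Mzb1 and Jchain lie far above their ticks, while Canx lies on its tick in both libraries.

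Individual plasma cell-like cells varied widely. The 32 genes together took a median of 13.97% of the UMIs of a cell at day 0 (2.52% to 27.3%) and 11.64% at day 28 (2.31% to 30.1%). Jchain alone took a median of 10.11% (0.0534% to 25.3%) and 7.67% (0.0624% to 26.4%), which makes up most of that share. The 30 genes without Jchain and Mzb1 took a median of 2.42% (1.07% to 5.80%) and 2.63% (1.09% to 5.75%). For comparison, the whole set took a median of 0.903% and 0.779% in plasmacytoid dendritic cell-like cells, 0.989% and 0.945% in granulocyte progenitor-like cells, 0.303% and 0.451% in T cell-like cells and 0.404% and 0.424% in erythroid-like cells. The lowest plasma cell-like cell thus had a larger share than the median cell of any of these classes, with Jchain counted.

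Across plasma cell-like cells, the share of UMIs in chaperones followed that in disulfide isomerases, with Pearson r of 0.88 over 26 cells at day 0 and 0.65 over 82 cells at day 28. Chaperones also followed the translocon group (0.59 and 0.59) and signal peptidase (0.44 and 0.40). They did not follow the antibody assembly genes (−0.19 and −0.10) or Xbp1 (−0.02 and −0.02). Jchain and Mzb1 shares had r of −0.45 and −0.12. The points of each value are cells of 1 library, and shares of a cell's UMIs are bound to each other because they sum within it. The 82 cells include the 10 barcodes that carry granulocyte progenitor markers. In those the members took 4.87% of the UMIs, against 13.6% in the other 72, and no r without them is given here. At day 0 the single cell with most UMIs of a gene held 31.4% of the Hsp90b1, 35.7% of the Pdia3, 33.3% of the Pdia6 and 23.1% of the Mzb1 UMIs of the class.

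**Figure D3:**
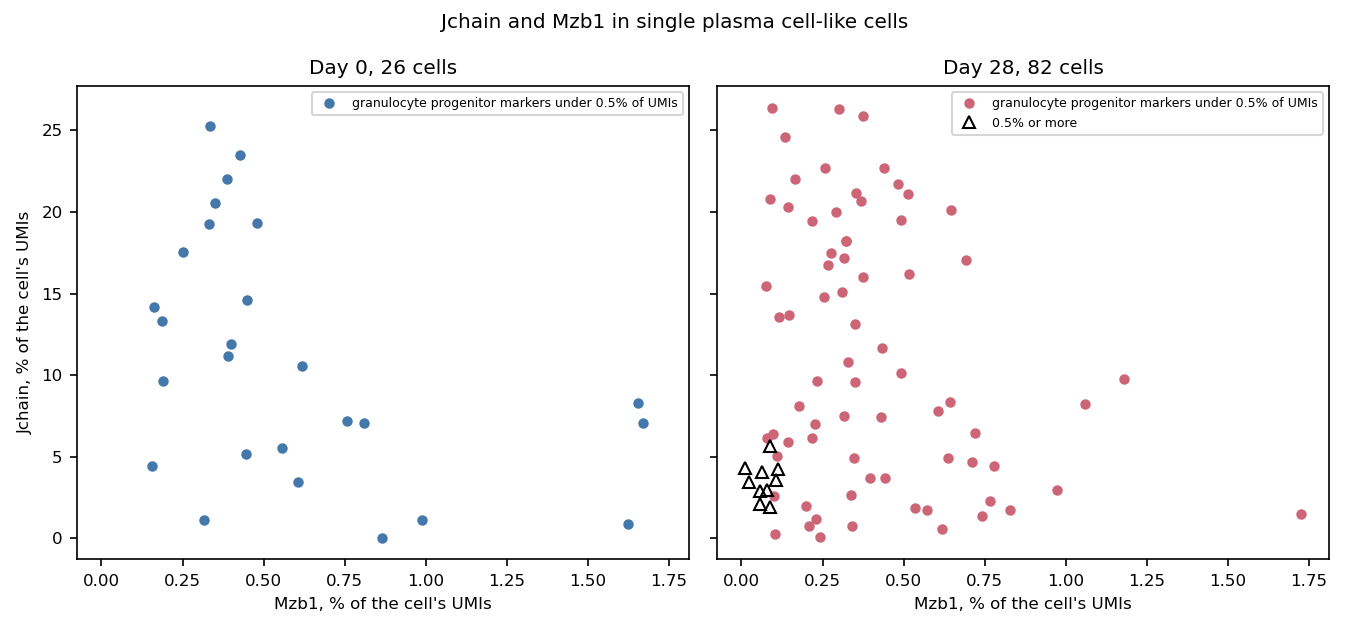
Share of UMIs in Mzb1 (x axis, percent) and Jchain (y axis, percent) in each plasma cell-like cell of day 0 and day 28, with triangles for the 10 day 28 barcodes that carry granulocyte progenitor markers. Jchain runs from 0.0534% to 26.4% across the cells with no common line through the points, and the triangles lie at low Mzb1.

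Between day 0 and day 28, plasma cell-like cells showed no common direction of the ER genes. Of the 32 genes 0 were 2-fold higher at day 28 and 1, Mzb1, was at 0.5 or less, where all 6429 genes gave 6.84% and 4.62%. The median log2 ratio was −0.19, with 8 genes above 0 and 24 below, where 49.9% of all genes lay above 0. Without the 10 barcodes it was 0.11, beside a median of −0.02 over all genes. Then 21 genes lay above 0 and 11 below, and no share of all genes above 0 stands beside that count. In that setting 0 of 32 genes were past either mark, where all genes gave 4.09% higher and 5.19% lower. The direction of the median therefore turned with 10 of the 82 cells. In those 10, granulocyte progenitor markers summed to 22490 CPM against 1102 CPM in the other 72 and 153.5 CPM at day 0, neutrophil markers to 8610, 355.8 and 128.7 CPM, and plasma cell markers to 715.9, 2031 and 1594 CPM. The members took 4.87% of their UMIs and 13.6% of those of the other 72. Whether the 10 barcodes are single cells was not tested.

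A few genes were lower at day 28 both with and without those barcodes. Mzb1 went from 6763 to 2966 CPM, a ratio of 0.439 (0.411 to 0.469), and to 4188 CPM without them, a ratio of 0.619 (0.579 to 0.662). Hspa5 had ratios of 0.577 (0.496 to 0.672) and 0.726 (0.621 to 0.851), and Pdia3 of 0.619 (0.497 to 0.775) and 0.598 (0.471 to 0.762). Pdia4 went from 1228 to 624.3 CPM (0.508, 0.437 to 0.593) and to 869.6 CPM without them (0.708), and Manf had ratios of 0.608 (0.540 to 0.686) and 0.801. For these 5 genes the intervals of counting error did not reach 1 with all cells, but Hspa5, Pdia3, Manf and Mzb1 drew 23.1% to 35.7% of their day 0 UMIs from 1 cell. Jchain turned direction, with a ratio of 0.833 (0.819 to 0.846) over all cells and 1.09 (1.07 to 1.10) without the barcodes. Xbp1 likewise had ratios of 0.890 (0.790 to 1.005) and 1.165, Herpud1 of 0.944 and 1.30, Hsp90b1 of 0.926 and 1.26, and Ssr4 of 1.05 and 1.33. P4hb had a ratio of 1.36 (1.025 to 1.84) over all cells and 1.108 (0.816 to 1.53) without the barcodes, and Atf4 of 1.23 (0.911 to 1.68) and 1.40. In the 10 barcodes P4hb stood at 1.65 times its level in the other 72, Calr, Canx and Pdia3 at 1.01, 0.983 and 1.10 times, and Mzb1, Pdia4, Dnajb9 and Herpud1 at 0.171, 0.198, 0.217 and 0.219 times.

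Jchain UMIs were also found in every unit outside the plasma cell-like class, at a higher level at day 28 in all but granulocyte progenitor-like cells. Outside the plasma cell-like class its level lay between 12.5 and 35.6 CPM at day 0 in every unit but granulocyte progenitor-like cells (379 CPM), and between 110 and 338 CPM at day 28 in every unit but megakaryocyte or erythroid progenitor-like (1290 CPM) and plasmacytoid dendritic cell-like cells (1480 CPM). Single barcodes of at least 1% Jchain made up the exceptions. There was 1 in granulocyte progenitor-like cells at day 0. At day 28 there was 1 each in megakaryocyte or erythroid progenitor-like and plasmacytoid dendritic cell-like cells. In all cells outside the class, 2 barcodes at day 0 and 7 at day 28 held that much, up to 5.15% and 11.4% of their UMIs. Without them the 3 units stood at 16.2 CPM at day 0, and 119 and 165 CPM at day 28. Classes with under 20 cells in a library are not among these units. Jchain stood at 1156 CPM at day 0 in mature B cell-like cells. At day 28 it stood at 19450 CPM in neutrophil-like cells (5 cells) and 9556 CPM in cluster 21 (6 cells). As a measure of background, erythroid-like cells held a Jchain UMI in 8.74% of cells at day 0 and 34.6% at day 28 after thinning every cell to 3200 UMIs (16.35% and 83.46% before, at median depths of 9163.5 and 16645 UMIs). The share in T cell-like cells was 5.65% and 38.9% and in granulocyte progenitor-like cells 5.52% and 32.5%, so the Jchain of these classes was near the erythroid background, and its ratios there are not read as expression. Plasma cell-like cells held 1.07% of all UMIs at day 0 and 2.39% at day 28, and the part of free RNA in the other units was not tested.

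**Figure D4:**
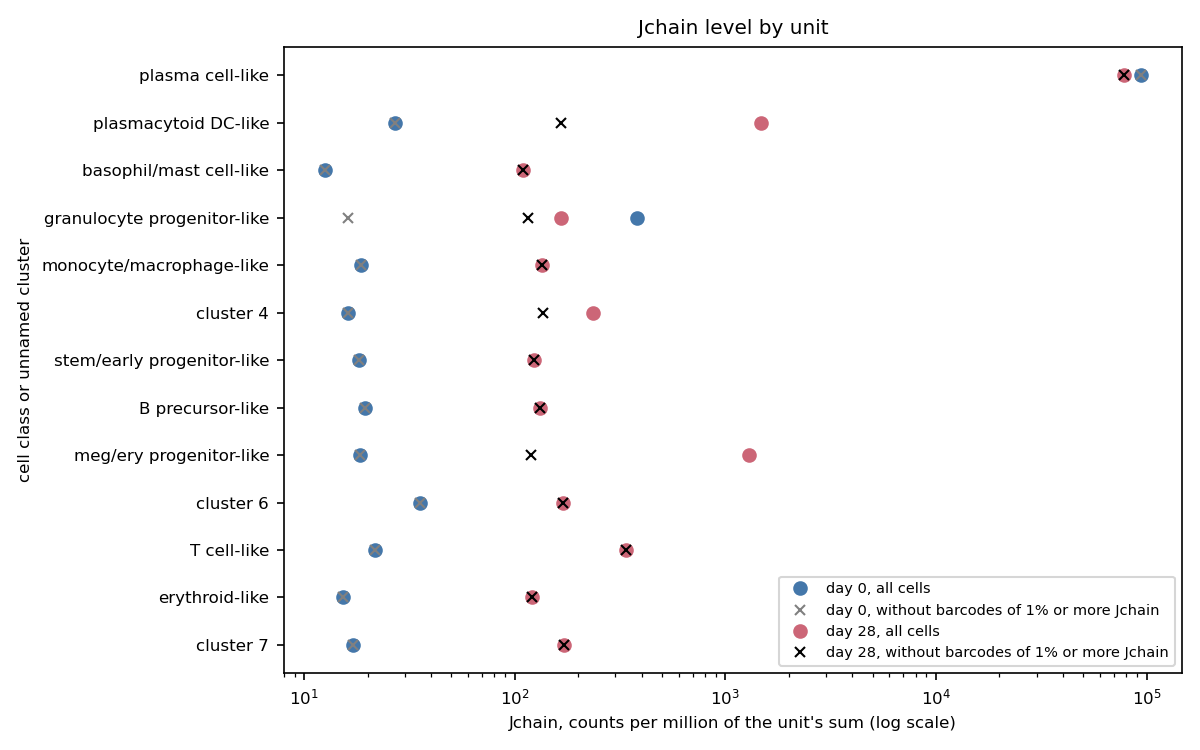
Jchain level (CPM, log axis) in each of the 13 units at day 0 and day 28, with and without barcodes outside the plasma cell-like class in which Jchain takes 1% or more of the UMIs. Without them every other unit falls to a narrow band per library, 12.5 to 35.6 CPM at day 0 and 110 to 338 CPM at day 28.

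The wider ER lists were likewise high in plasma cell-like cells, by the same count of genes at least 2-fold above the other units in both libraries. It was reached by 12 of 20 genes of ER-associated degradation, such as Derl3, a channel protein of that route (599.1 and 515.2 CPM, 52.8 and 42.9 times), and Edem1, a lectin that selects misfolded glycoproteins (693.1 and 557.9 CPM, 19.5 and 9.15 times). Among genes of ER to Golgi transport 14 of 28 reached it, such as Tmed10 (737.7 and 580.4 CPM) and the cargo receptor Lman1 (207.9 and 214.8 CPM). Of other oxidoreductases 7 of 14 did, led by Txndc5 (2312 and 2359 CPM, 34.2 and 27.7 times). Of prolyl isomerases 3 of 7 did, with Fkbp11 at 406.0 and 163.1 CPM, Fkbp2 at 866.4 and 817.8 CPM and Ppib at 970.4 and 645.7 CPM. Targeting and translocation gave 8 of 16, with the translocon partner Serp1 at 2109 and 1516 CPM, and N-glycosylation 7 of 18, with Krtcap2, a subunit of the oligosaccharyltransferase, at 1228 and 1100 CPM. Stress sensors gave 2 of 8, Creb3l2 (84.2 and 60.7 CPM, 6.56 and 4.64 times) and Eif2ak3, which encodes the sensor kinase PERK (49.5 and 25.9 CPM, 3.45 and 2.03 times, on 10 and 23 UMIs). Targets of the integrated stress response gave 6 of 25, with the amino acid transporter subunit Slc3a2 at 1025 and 1199 CPM (5.61 and 6.89 times). Chac1 (3.97 and 7.97 times, on 6 and 62 UMIs), Asns (3.75 and 4.665 times) and Atf5 (4.08 and 4.26 times) were also among the 6. Of the lists outside the ER, immediate early and dissociation genes gave 3 of 12, Jun (757.5 and 795.3 CPM, 3.54 and 4.14 times), Jund (2.40 and 2.88 times) and Fosb (2.12 and 2.85 times), cytosolic heat shock genes 0 of 12 and cell cycle genes 0 of 20, against the 4.93% of all genes.

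Among the 10 non-member genes whose log2 levels over the 13 units and 2 libraries (26 points) most resembled the mean of the 32 genes were Erp44 (r = 0.93), Edem2 (0.93), Hspa13 (0.91), Creb3l2, Rpl36al, Gmppa, Fkbp2, Slpi and Srprb (0.90 each), out of 5007 candidates. Erp44, Edem2, Creb3l2, Fkbp2 and Srprb stand on the wider ER lists. The points share libraries, and the plasma cell-like points weigh most, so the values describe these units. Of the members themselves, Creld2 (0.97), Xbp1 (0.96) and Manf (0.95) followed the mean of the set most closely, and Mzb1 (0.55), Canx (0.33) and Ddit3 (0.15) least.

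Plasmacytoid dendritic cell-like cells were high for a few of the genes. Xbp1, Herpud1, Manf, Sec61a1 and Mzb1, 5 of 32, were at least 2-fold above the other units in both libraries and 0 were at 0.5 or less, where all genes gave 7.32% and 2.99%. The median log2 difference of the set was 0.64 and 0.45, beside 0.04 and 0.02 over all genes. Xbp1 stood at 270.7 CPM (229 to 318) in the day 0 library and 183.8 CPM (152 to 220) in the day 28 library, 5.06 and 2.53 times the other units. Mzb1 stood at levels of 236.7 and 177.5 CPM (8.03 and 5.87 times), far under plasma cell-like cells in both libraries. Herpud1 stood at 267.1 and 219.6 CPM (3.36 and 4.50 times), Manf at 521.7 and 383.1 CPM (2.68 and 2.08 times) and Sec61a1 at 147.0 and 177.5 CPM (2.103 and 2.207 times). Hspa5 (462.6 and 333.3 CPM, 2.34 and 1.78 times), Hsp90b1 (476.9 and 445.4 CPM, 2.40 and 1.51 times), Spcs2 (467.9 and 317.7 CPM, 2.26 and 1.72 times) and Sec11c (505.6 and 457.9 CPM, 2.096 and 1.598 times) passed the mark at day 0 alone. The 4 members with the lowest ratios were Calr (308.4 and 297.5 CPM), Canx (168.5 and 163.5 CPM), Sdf2l1 (87.9 and 81.0 CPM) and P4hb (134.5 and 158.9 CPM), between 0.526 and 1.08 times the other units.

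An Xbp1 UMI was found in 58.8% and 41.2% of plasmacytoid dendritic cell-like cells after thinning to 3200 UMIs, beside 100% and 93.9% of plasma cell-like and 4.85% and 6.02% of erythroid-like cells. A Mzb1 UMI was found in 40.3% and 39.5%, beside 5.83% and 3.01% of erythroid-like cells, so both stood above that background in both libraries. Of the wider lists few genes were high in this class, beside the 7.32% of all genes: 1 of 16 for targeting (Serp1, 1327 and 1237 CPM, 3.95 and 3.82 times), 2 of 20 for degradation (Vimp and Edem2), 2 of 28 for ER to Golgi transport (Sec24d and Tmed3), 1 of 14 oxidoreductases (Pdia5), 1 of 8 stress sensors (Creb3l2), 1 of 25 integrated stress response targets (Slc3a2), 0 of 7 prolyl isomerases and 0 of 18 for N-glycosylation. Cell cycle genes were low, with 19 of 20 at 0.5 or less of the other units in both libraries, where all genes gave 2.99%.

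From day 0 to day 28 the set hardly moved in plasmacytoid dendritic cell-like cells, with a median log2 ratio of −0.13 beside −0.11 over all genes. Past 2-fold higher was 1 gene, Jchain, and 0 were at 0.5 or less, where all genes gave 1.37% and 2.08%. Jchain went from 15 to 953 UMIs (26.9 to 1484 CPM, ratio 55.2, 33.3 to 99.0), but 1 cell held 88.98% of the day 28 UMIs, and without it 105 UMIs gave a ratio of 6.15, within the range of the other units. The lowest ratios were those of Pdia4 (95.02 to 48.28 CPM, 0.508, 0.315 to 0.806), Pdia6 (224.1 to 124.6 CPM, 0.556, 0.415 to 0.742), Xbp1 (0.679, 0.529 to 0.869) and Spcs2 (0.679, 0.563 to 0.819). Apart from Jchain the highest were those of Sec61a1 (1.21, 0.901 to 1.62), Atf4 (1.203, 0.919 to 1.58) and P4hb (1.18, 0.868 to 1.61), whose counting intervals include 1.

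Granulocyte progenitor-like cells were high for other genes than plasmacytoid dendritic cell-like cells, though Calr and Sdf2l1 also passed the mark in plasma cell-like cells. Calr, Sdf2l1 and P4hb, 3 of 32, were at least 2-fold above the other units in both libraries and 0 were at 0.5 or less, where all genes gave 3.14% and 1.59%. The median log2 difference was 0.62 and 0.46 beside 0.08 and 0.04 over all genes. Calr (ENSMUSG00000003814, chromosome 8, 84841850 to 84846934) stood at 1427 CPM (1387 to 1469) in the day 0 library and 1578 CPM (1558 to 1597) in the day 28 library, 4.73 and 3.73 times the other units, which is above the plasma cell-like levels of 1347 and 1234 CPM. Sdf2l1 stood at 338.6 and 382.3 CPM (3.49 and 3.13 times) and P4hb at 353.8 and 446.7 CPM (2.73 and 2.31 times). Canx stood at 261.7 and 292.6 CPM (1.49 and 1.43 times), the highest of the 13 units at day 0 and the second at day 28. Manf (2.21 and 1.77 times), Pdia6 (2.18 and 1.88 times), Ssr2 (2.02 and 1.83 times) and Xbp1 (106.7 and 83.9 CPM, 2.102 and 1.226 times) passed the mark at day 0 alone. On the low side were Ddit3 (13.4 and 12.8 CPM, 0.530 and 0.614 times), for which the class was the lowest unit in both libraries, Dnajb9 (26.1 and 22.7 CPM, 0.515 and 0.684 times), Mzb1 (14.9 and 8.83 CPM) and Herpud1 (71.4 and 37.8 CPM, 0.933 and 0.855 times).

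The class joins 2 clusters that differed in these genes. Calr stood at 1213 and 1366 CPM in cluster 2 (82 and 431 cells) and at 1714 and 1875 CPM in cluster 5 (63 and 284 cells). Sdf2l1 was at 299.1 and 307.3 CPM against 391.7 and 487.6 CPM, and P4hb at 345.7 and 404.8 CPM against 364.7 and 505.5 CPM. All 3 genes were higher in cluster 5 in both libraries. Across cells of the class, the share of UMIs in the 30 genes without Mzb1 and Jchain followed that in the granulocyte progenitor markers, with r of 0.58 over 145 cells and 0.54 over 715 cells. Few genes of the wider lists passed the mark, beside the 3.14% of all genes: 2 of 18 for N-glycosylation (Rpn1 and Mogs), 1 of 7 prolyl isomerases (Fkbp11, 54.1 and 41.9 CPM, 5.76 and 3.15 times), 1 of 14 oxidoreductases (Selm), 1 of 28 for ER to Golgi transport (Tmed3), 1 of 25 integrated stress response targets (Phgdh), and 0 of 20, 0 of 16 and 0 of 8 for degradation, targeting and stress sensors.

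Levels in granulocyte progenitor-like cells were close at day 0 and day 28, with a median log2 ratio of −0.01 beside −0.09 over all genes. Of the 32 genes 0 were 2-fold higher and 1, Jchain, was at 0.5 or less, where all genes gave 0.215% and 0.644%. Jchain held 1247 UMIs at day 0, of which 1 cell held 95.75%, and without that cell 53 UMIs remained and the direction turned. With the deepest sums of the 4 classes, several small ratios had intervals clear of 1: Herpud1 0.529 (0.454 to 0.618), Pdia6 0.660 (0.616 to 0.708), Spcs1 0.715 (0.656 to 0.780), Hyou1 1.53 (1.11 to 2.16), Hsp90b1 1.29 (1.204 to 1.378), Atf4 1.26 (1.15 to 1.39) and P4hb 1.26 (1.19 to 1.34). Those intervals hold no difference between animals or library preparations.

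T cell-like cells held the set at low levels at day 0. Mzb1 alone, 1 of 32, was at least 2-fold above the other units in both libraries and 0 were at 0.5 or less in both, where all genes gave 2.96% and 1.28%. At day 0 alone 9 of 32 were at 0.5 or less, where all genes gave 6.28%, and the median log2 difference was −0.84 at day 0 and −0.20 at day 28 beside −0.19 and −0.01 over all genes. Pdia6 (41.0 CPM), Hsp90b1 (71.8 CPM), P4hb (40.4 CPM) and Ssr1 (73.7 CPM) stood lowest at day 0, at 0.285, 0.306, 0.362 and 0.388 times the other units, and at 0.640, 0.912, 0.696 and 0.644 times at day 28. Mzb1 stood at 88.1 CPM (78.8 to 98.1) and 196.7 CPM (150 to 253), 3.19 and 6.47 times. A Mzb1 UMI was found in 14.1% and 11.1% of the cells after thinning, against 5.83% and 3.01% of erythroid-like cells.

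Within the class, Mzb1 differed between clusters. At day 0 it stood at 3.85 CPM in cluster 1 (542 cells), 185.0 CPM in cluster 9 (214 cells) and 213.3 CPM in cluster 16 (82 cells), which was led by the interleukin genes Il17f and Il17a. Xbp1 followed the same order at 10.1, 33.8 and 41.3 CPM, Herpud1 at 28.4, 67.6 and 91.7 CPM, Hsp90b1 at 50.02, 93.3 and 114.7 CPM, and Sdf2l1 at 17.8, 53.9 and 66.5 CPM. All 5 genes were lowest in cluster 1, and no count over all genes stands beside this. The order did not hold for every member. Dnajc3 (80.8, 64.4 and 103.2 CPM), Dnajb9 (70.2, 67.6 and 78.0 CPM) and Ssr4 (229.4, 210.8 and 252.3 CPM) were lowest in cluster 9. At day 28 the class held 9 cells of cluster 1, 27 of cluster 9 and 0 of cluster 16, so its level at each day rests mainly on a different cluster.

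T cell-like cells had the largest day 28 to day 0 difference of the 4 classes. The median log2 ratio of the 32 genes was 0.63 beside 0.15 over all genes, and 28 of 32 lay above 0, where 60.7% of all genes did. On the CPM + 10 scale 8 were at least 2-fold higher and 0 at 0.5 or less, where all genes gave 7.36% and 3.83%. The 8 were Xbp1, Hsp90b1, Sdf2l1, Creld2, Calr, P4hb, Mzb1 and Jchain. Hsp90b1 went from 71.8 to 285.3 CPM (3.97, 3.08 to 5.07), Creld2 from 15.2 to 65.6 CPM (4.32, 2.46 to 7.31), Sdf2l1 from 35.4 to 121.3 CPM (3.43, 2.31 to 4.97), P4hb from 40.4 to 134.4 CPM (3.32, 2.29 to 4.72) and Calr from 185.2 to 403.3 CPM (2.18, 1.78 to 2.64). The counting intervals of these 5 genes lay above 1. Xbp1 went from 21.6 to 68.9 CPM (3.20, 1.88 to 5.21) on 8 cells at day 28, 1 of which held 52.4% of the UMIs. Mzb1 had a ratio of 2.23 (1.67 to 2.95) with 48.3% of its day 28 UMIs in 1 of 8 cells, and without that cell its log2 ratio was 0.32 in place of 1.08. At the other end were Dnajb9 (70.3 to 36.1 CPM, 0.513, 0.253 to 0.934), Ddit3 (0.560, 0.202 to 1.25), Herpud1 (0.808, 0.410 to 1.45) and Spcs2 (0.925, 0.686 to 1.22).

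Within cluster 9 alone the median log2 ratio was 0.60, with 6 of 32 genes (Xbp1, Hsp90b1, Sdf2l1, Creld2, P4hb and Jchain) at least 2-fold higher and 0 at 0.5 or less, where all genes of the cluster gave 6.79% and 6.85%. There Hsp90b1 went from 93.3 to 309.6 CPM, Creld2 from 16.9 to 72.6 CPM and P4hb from 53.1 to 145.3 CPM, and Calr from 227.7 to 451.1 CPM lay just under the mark. Mzb1 in that cluster stood at 185.0 and 229.4 CPM. In cluster 1, with 9 cells at day 28, the median was −0.08, with 2 of 32 genes at least 2-fold higher and 7 at 0.5 or less, where all genes gave 17.8% and 21.5%. Cell cycle genes moved with the set: their median log2 ratio in T cell-like cells was 2.13, with 18 of 20 at least 2-fold higher, such as Ccna2 at 9.05 and 209.8 CPM. Granulocyte progenitor markers in the class summed to 196.4 and 623.0 CPM, beside 114.1 and 707.4 CPM in erythroid-like cells, and 1 of the 36 cells held 18.67% of the member UMIs. The part of the cell cycle, of cluster make-up or of free RNA in these ratios was not tested.

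**Figure D5:**
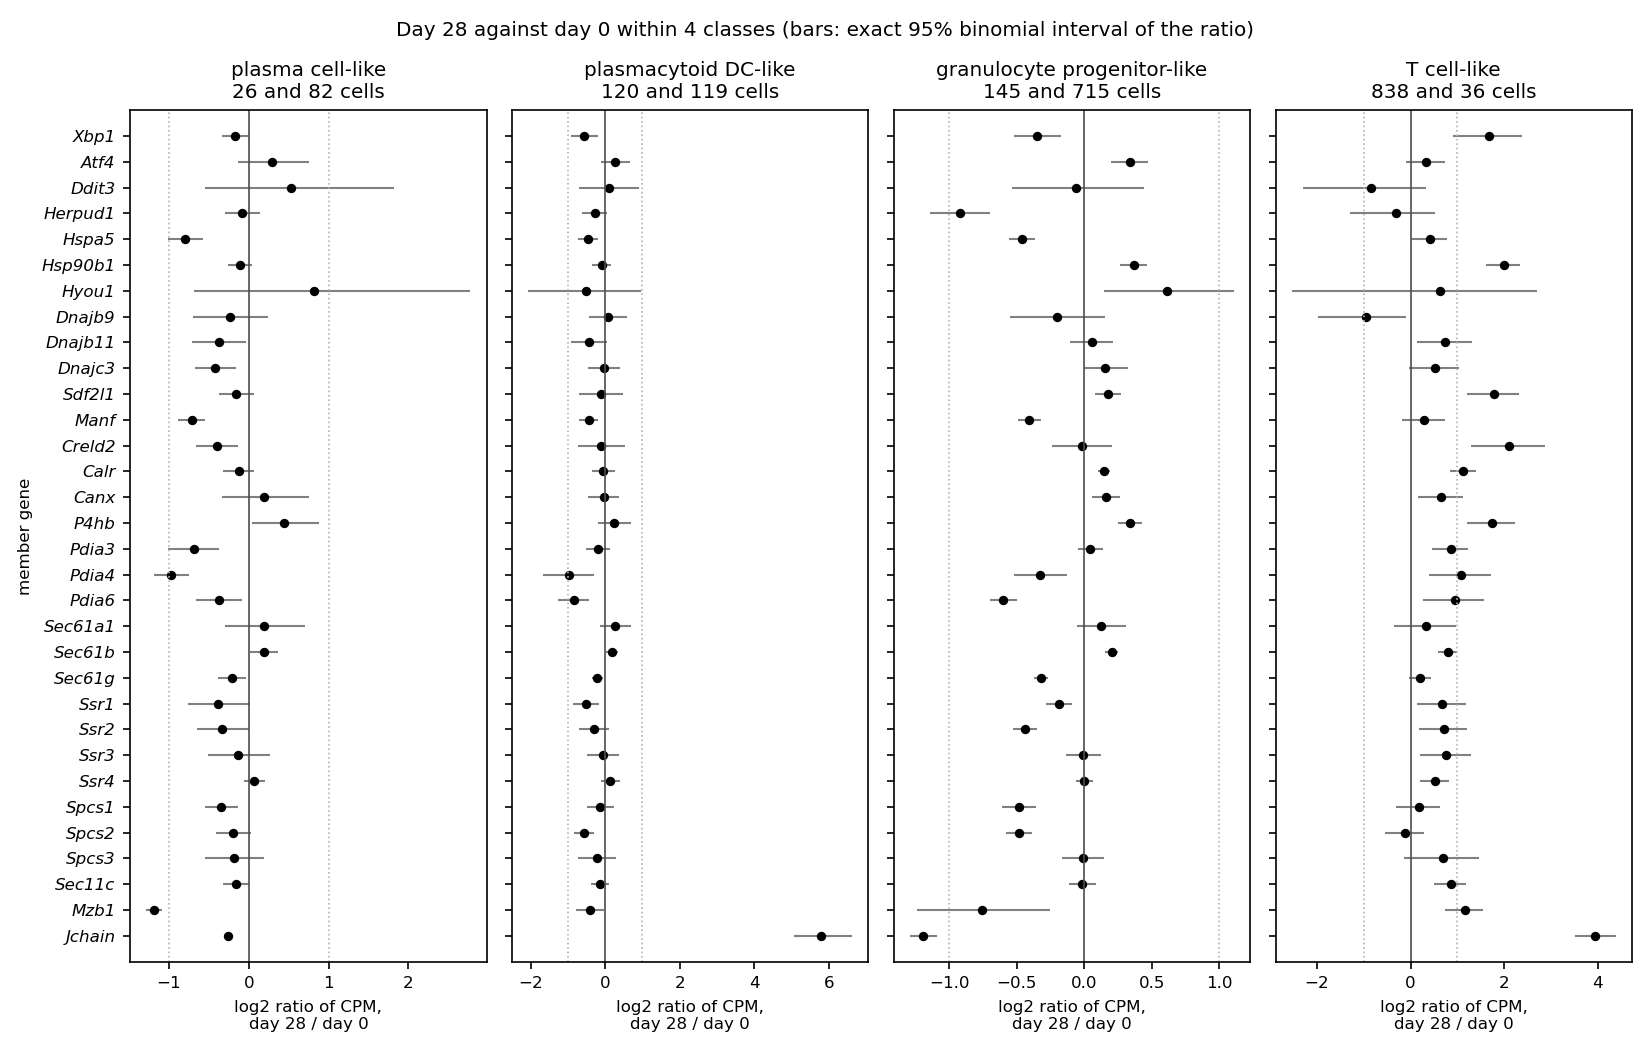
Log2 ratio of CPM at day 28 over day 0 for the 32 ER genes (rows) in plasma cell-like, plasmacytoid dendritic cell-like, granulocyte progenitor-like and T cell-like cells, with exact 95% binomial intervals that cover counting error only. Most T cell-like points lie right of 0 with wide intervals, granulocyte progenitor-like points lie near 0 with narrow ones, and Jchain lies far to the right in plasmacytoid dendritic cell-like and T cell-like cells.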

How the data were processed

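Droplet RNA libraries of sorted YFP+CD11b- cells, 1 per group, were read as the authors deposited them: raw UMI counts per gene and barcode, whole numbers with no normalization, in which the lowest barcode total was 3001 at day 0 and 4175 at day 28. Per the submitters' processing notes, reads went through Cell Ranger 2.1.1 and STAR on mm10. A minimum of 500 genes and a maximum of 10% mitochondrial UMIs removed 2 and 17 barcodes. Scrublet's own threshold marked 0.15% of barcodes at day 0 and 0.829% at day 28, so the top-scoring cells at 0.8% per 1000 barcodes were left out in both libraries alike (57 and 56). Clustering in scanpy 1.11.5 left 192 ER, heat shock and immediate early genes out, then used 2000 variable genes, 30 components, 20 neighbours and Leiden (leidenalg 0.10.2, resolution 0.8, seed 1), which gave 22 clusters.

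A cluster was named "X-like" from 17 marker lists where at least 3 markers were found in 10% of its cells, its score was at least 1 and led that of a tied class by 1, and its 10 leading genes did not hold more markers of another class. UMIs were summed per class and divided by the class total to give CPM, and units with at least 20 cells in each library were compared. Ratios to the other units and log2 day ratios in medians and counts add 10 CPM, and day ratios given with an interval add nothing. With 1 library per group no test exists, so intervals are exact (Poisson for sums, Clopper-Pearson for shares, conditional binomial for ratios) at 95%, and PCR, sorting and animal differences lie outside them. Shares of cells were read after thinning to 3200 UMIs, which left out 225 and 0 cells. In plasma cell-like cells every gene was named, and elsewhere the 4 highest and 4 lowest by ratio of at least 10 CPM. Of the 10 genes most like the set, 1 is not reported here. The members, lists and naming thresholds were chosen with earlier results of these data known. Promoters are RefSeq's for GRCm38.p6, and gene positions are from GENCODE M21. The summing and ratio steps, run with numpy 2.4.6, scipy 1.17.1 and pandas 2.3.3, were tested on simulated data. Other resolutions, doublet and mitochondrial filters, scalings, marks and sets of cells were tried as alternatives. The labelled surgery, library and sequencing lane cannot be told apart.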

Additional observations from a re-analysis of the deposited data

Results flagged for a closer look

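Xbp1, Mzb1 and Jchain are given here because each was at least 2-fold higher at day 28 in some units and at 0.5 or less in another, with counting intervals clear of a ratio of 1. These log2 ratios of CPM + 10 have 1 library behind each group, and the differences between units were not tested. Mzb1 was lower at day 28 in plasma cell-like cells (−1.19) and higher in T cell-like (1.08) and megakaryocyte or erythroid progenitor-like cells (1.58). In the last of these 1 day 28 cell held 25.12% of all member UMIs. Without the 10 barcodes that carry granulocyte progenitor markers the plasma cell-like value was −0.69, short of the mark. In T cell-like cells 1 day 28 cell held 48.3% of the Mzb1 UMIs. Xbp1 was lower in basophil or mast cell-like cells (−1.05) and higher in T cell-like cells (1.32) and cluster 6 (2.02), of which the latter had 21 cells at day 28.

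Jchain was lower at day 28 in granulocyte progenitor-like cells (−1.14), where 1 day 0 cell held 95.75% of its UMIs. It was higher in megakaryocyte or erythroid progenitor-like (5.52) and plasmacytoid dendritic cell-like cells (5.34), where barcodes with at least 1% Jchain held most of it. It was also higher in T cell-like cells (3.45), cluster 4 (3.23), cluster 7 (2.74), basophil or mast cell-like (2.41) and erythroid-like cells (2.38). Smaller rises were those of monocyte or macrophage-like (2.33), B precursor-like (2.26) and stem or early progenitor-like cells (2.25) and cluster 6 (1.97). Erythroid-like cells served above as background, so these ratios are not read as expression. In T cell-like cells 1 day 28 cell held 46.6% of the Jchain UMIs. Cluster 4 held 586 at day 28, and 338 without 1 barcode of at least 1% Jchain.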

How the results depend on the processing

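The count of ER genes above the other units in plasma cell-like cells was 16 to 27 under the 17 alternatives run, beside 24, and 0 genes lay below in any that was run for that count. The plasma cell-like median day ratio of −0.19 turned to 0.11 with no doublets left out, 0.10 with mitochondrial shares up to 5%, 0.11 without the 10 barcodes with granulocyte progenitor markers (added after seeing the data) and 0.03 as a mean of per-cell CPM. Jchain in that class went from −0.26 to 0.0748, 0.173 and 0.119 under the first 3 of these. In plasmacytoid dendritic cell-like cells the 5 genes above became 2 at resolution 0.4, 3 with no doublets left out, 3 under TMM-type scaling, 11 at a mark of 1.5-fold, 2 at 3-fold and 0 against the highest other unit. In granulocyte progenitor-like cells the 3 genes above became 5 with no doublets left out, 5 under TMM-type scaling, 9 at 1.5-fold and 0 against the highest other unit, the 0 below became 1 at resolution 0.4, and the median day ratio of −0.01 became 0.17 under TMM-type scaling. Jchain in that class went from −1.14 to 2.74 with all genes kept in clustering, 0.23 with no doublets left out, 1.29 with mitochondrial shares up to 5%, 2.42 without its top cell and 2.27 without barcodes of 1% or more Jchain. In T cell-like cells the 1 gene above became 0 against the highest other unit, and the 0 below became 2 after thinning and 1 as a mean of per-cell CPM. Their median day ratio stayed between 0.31 and 0.70 under 16 alternatives, and TMM-type scaling gave 0.31 beside −0.13 over all genes. The cause was not tested for any of these. With all genes kept in clustering, all 108 plasma cell-like cells fell in 1 cluster of 111 that took no name, so that setting gave no plasma cell-like value. No paired analysis was possible because each group has 1 library, and no replicate could be left out. Depth limits Hyou1 and Ddit3 in plasma cell-like cells at day 0 (4 and 8 UMIs) and every gene in the 36 T cell-like cells of day 28.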

Other observations

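Basophil or mast cell-like cells (35 at day 0 and 75 at day 28), granule-bearing cells that were not among the 4 main classes, held 6 of the 32 genes at least 2-fold above the other units in both libraries and 1, Mzb1, at 0.5 or less, where all genes gave 4.23% and 1.25%. Calr stood at 1566 and 2008 CPM, 5.18 and 4.74 times the other units and the highest level of the 13 units in both libraries. The others were Sdf2l1 (246.4 and 349.7 CPM), P4hb (290.1 and 464.6 CPM), Manf (502.1 and 409.1 CPM), Ssr4 (817.1 and 911.1 CPM) and Dnajb9 (140.3 and 95.5 CPM). Calr, Sdf2l1 and P4hb were also the 3 genes above the mark in granulocyte progenitor-like cells. Xbp1 in the class went from 171.5 to 77.4 CPM, a ratio of 0.451 (0.308 to 0.663).

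B precursor-like cells (194 and 236) held Mzb1 at 657.1 and 621.9 CPM, 21.7 and 19.8 times the other units, and Herpud1 at 330.4 and 166.8 CPM (4.13 and 3.46 times), 2 of 32 genes above the mark where all genes gave 4.87%. Their Jchain to Mzb1 ratio was 0.0297 and 0.212 UMIs, against 13.9 and 26.4 in plasma cell-like cells. Their Jchain level of 19.5 and 132 CPM lay near that of erythroid-like cells (15.3 and 121 CPM), taken above as background. The ratio and its difference between the days are therefore not read as expression in B precursor-like cells. Cluster 6 (312 and 21 cells, led by Cd74, Ms4a1, Fcmr and Cd79a) had the highest median day ratio of the 13 units, 1.27 on the log2 scale beside −0.01 over all genes, with 21 of 32 genes at least 2-fold higher and 1 at 0.5 or less, where all genes gave 8.81% and 10.2%. There Hsp90b1 went from 138.1 to 954.2 CPM, Xbp1 from 42.0 to 200.9 CPM, P4hb from 36.3 to 191.8 CPM, Creld2 from 22.8 to 132.4 CPM and Mzb1 from 493.4 to 780.7 CPM, while 1 of the 21 day 28 cells held 34.27% of the member UMIs. Erythroid-like cells held 7 of 32 genes (Xbp1, Hsp90b1, Sdf2l1, P4hb, Pdia4, Pdia6 and Sec61b) at 0.5 or less of the other units in both libraries and 0 above the mark, where all genes gave 10.8% and 6.52%.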
